A study of Homo sapiens with 12 samples.

Results

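The genes described here are 10 components and response genes of the TGF-beta and BMP pathways, chosen by name from the 26485 genes of the expression table: the ligands TGFB1, TGFB2 and BMP4, the receptor TGFBR2, the inhibitory SMADs SMAD6 and SMAD7, and the response genes ID1, ID2, ID3 and ID4. BT474 is an established human breast cancer line with amplified HER2, and lapatinib inhibits the HER2 and EGFR kinases. Poly(A) RNA of wild-type (WT) BT474 cells was sequenced in 4 groups of 3 libraries: Control at day 0, drug-tolerant persisters (DTP) at day 9, drug-tolerant expanded persisters that grow again under the drug (DTEP) at month 6, and long-term resistant cells (LR) at month 9 of lapatinib at 1 uM given every 3 days. The treatment field of the Control libraries also reads lapatinib at 1 uM, but their titles give Control and day 0, and they were taken as the starting point. All 4 groups come from the same line, and the study describes the libraries of a group both as technical replicates and as plates kept in parallel, so the p-values measure only the spread between these libraries. In bulk RNA a lower share of cells that express a gene and less of its RNA per cell cannot be told apart.

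TGF-beta and BMP ligands are secreted dimers that bring type I and type II receptor kinases together. TGF-beta receptors phosphorylate SMAD2 and SMAD3, BMP receptors phosphorylate SMAD1, SMAD5 and SMAD9, and both sets join SMAD4 and enter the nucleus. The pathway turns on its own inhibitors, SMAD6 and SMAD7, while the ID genes are among the best known direct targets of BMP signalling and encode helix-loop-helix proteins that bind the E proteins and keep them off DNA. In breast epithelium TGF-beta is known mainly for arresting growth and, in later disease, for promoting a mesenchymal state.

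Depth was 16383363 to 25030482 assigned reads per library. Values are normalised read counts, taken here as CPM with TMM factors. On this scale 1 read was worth 0.0412 to 0.0576. A library without a read allowed a level of up to 0.124 to 0.173 (3 reads, counting error only). The summed level of 8 luminal HER2-positive markers was 11047 to 11834 in Control, 14009 to 16748 in DTP cells, 4330 to 6404 in DTEP and 4149 to 5564 in LR. ERBB2 gave the largest part of this sum, and each of the 8 had reads in every group. In LR against Control 6 of the 8 were lower and 1 was higher by the test given below, against 32.6% and 30.2% of all tested genes. Mean ERBB2 went from 6526 in Control to 1774 in LR and mean CDH1 from 1125 to 75.1, while mean GATA3 went from 190 to 1251. Of the markers of other cells, COL1A1 alone of 7 fibroblast genes, VWF alone of 4 endothelial genes and 1 of 4 leukocyte genes passed the filter used for testing, and CD3E was at 0 in all 12 libraries. The summed level of 10 proliferation genes was 1691 to 1715 in Control, 93.5 to 102 in DTP cells, 1775 to 2648 in DTEP and 575 to 1230 in LR. The DTEP libraries were the most spread, with a median SD per gene of 0.33 on the log2 scale against 0.07 in Control, and DTEP replicate 3 had a median correlation across genes of 0.981 with the LR libraries against 0.948 with the other DTEP libraries. For the 10 genes, the results that it moved are given with and without it. Other pathway genes were not examined singly without it.

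Groups were compared with limma's moderated test on log2(value + 1) over all 12 libraries, for the 13794 genes at 1 or more in at least 3 libraries, and a gene passed at a Benjamini-Hochberg adjusted p below 0.05. Log2 changes are on that scale, on which the change of a gene with low values comes out too small, and SE is the error of a log2 change. Of the 10 genes, 9 were tested, TGFB1 being below the filter.

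From Control to DTP, 7 of 9 genes rose and 0 fell, where 25.2% of all tested genes rose and 28.8% fell. ID3 and TGFB2 also moved by more than 2 on the log2 scale, the study's own threshold, which 4.92% of all genes passed in either direction. From DTP to DTEP, BMP4 alone rose and 6 genes fell (ID1, ID3, ID4, SMAD7, TGFB2 and TGFBR2), against 35.7% higher and 32.6% lower of all genes. Of these, 4 fell by more than 2, against 15.2% of all genes. From DTEP to LR only ID4 fell and none rose, against 4.31% and 3.04% of all genes, and ID4 was also past the threshold of 2, as were 0.681% of all genes. The 0 genes lower in DTP and the 0 higher in LR were also 0 with edgeR, with DESeq2 and at an unadjusted limma p below 0.05. The 7 higher in DTP became 6 with edgeR, 6 with DESeq2 and 5 to 7 with 1 library left out. A fit of the Control and DTP libraries alone gave 8. With 1 library left out, the change of ID3 in DTP ran from 1.89 to 2.18. The median log2 change of the 9 genes was 1.08 in the first transition, -1.99 in the second and 0.03 in the third, where the median over all tested genes was -0.01, 0.08 and -0.07. These transitions share the DTP or DTEP libraries, so their changes are not independent of each other. The genes were chosen with earlier results of these data known, so an excess over the share of all genes carries no test.

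Read against the starting cells, 3 genes were higher in DTEP (ID2, SMAD6 and BMP4) and 4 were lower (ID1, ID3, ID4 and TGFBR2), where 29.5% and 28.7% of all genes were called higher and lower and 10.6% moved by more than 2. Against Control, 4 genes were higher in LR (ID2, SMAD6, SMAD7 and BMP4) and ID1, ID3, ID4 and TGFBR2 were lower, against 30.2% and 32.6% of all genes, and 12.8% of all genes passed the threshold of 2. Against DTP, 1 gene was higher in LR, BMP4, and 6 were lower, against 36.2% and 35.3% of all genes, with 17.9% past the threshold of 2. The shares of these genes called in each direction are given as a description, since the genes were not drawn at random and earlier results were known.

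**Figure D1:**
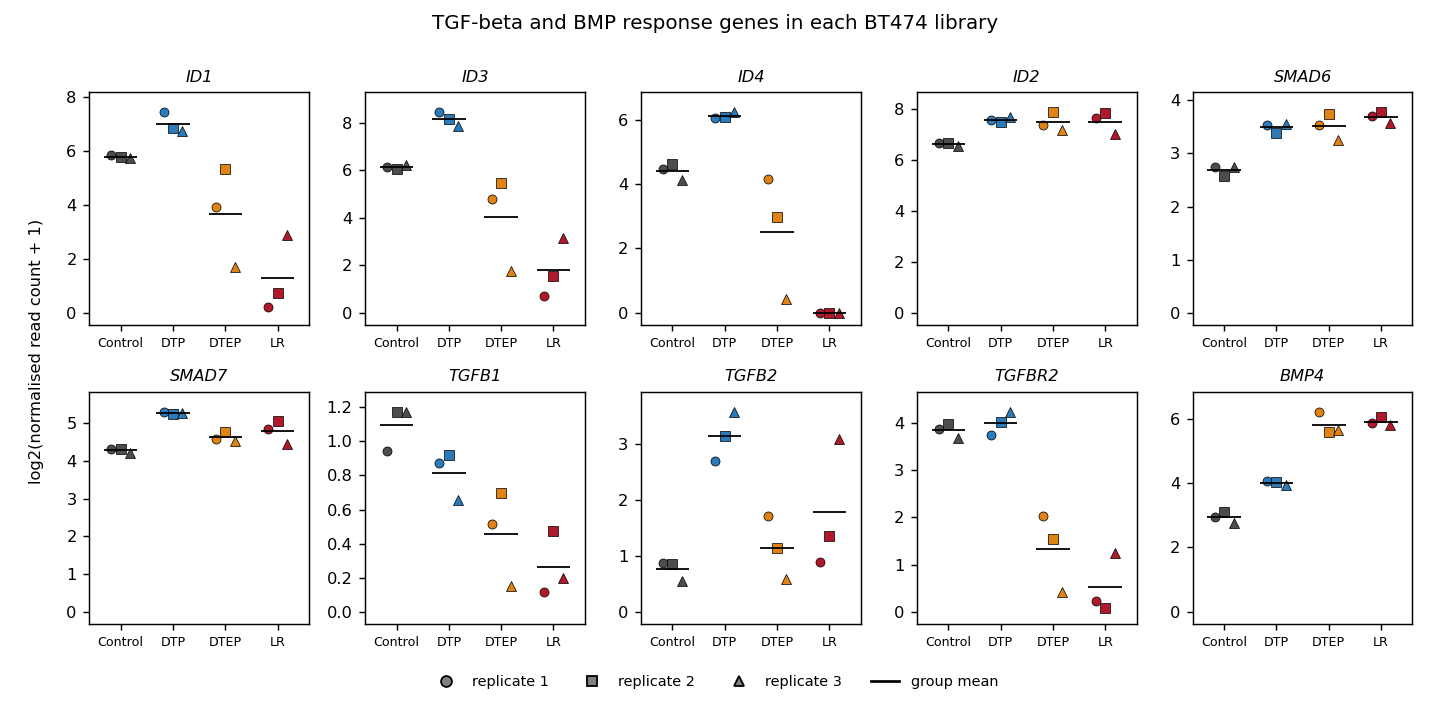
Level of the 10 genes in each library, as log2(normalised read count + 1) on the vertical axis, with Control, DTP, DTEP and LR on the horizontal axis. Symbols are the 3 libraries of a group and bars the group mean of the logarithms, and each panel has its own scale. ID1, ID3 and ID4 peak in DTP and are lowest in LR, where ID4 is at 0 in all 3 libraries, while ID2 and SMAD6 stay above Control in DTP, DTEP and LR, and BMP4 steps up in DTP and again in DTEP.

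BMP4, a ligand of the BMP receptors, rose in DTP and again in DTEP. It stood at 6.67, 7.50 and 5.82 in Control, 15.7, 15.4 and 14.3 in DTP cells, 73.7, 47.5 and 48.9 in DTEP and 57.3, 64.9 and 55.0 in LR. Control, DTP and the later groups did not overlap, and DTEP and LR did. On the log2 scale the rise was 1.08 in the first transition (limma adjusted p = 0.000437, SE 0.18) and 1.81 in the second (limma adjusted p = 3.24e-06, SE 0.18). By group means, LR was 8.86-fold above Control, at 59.1 ± 5.15 (SD, n = 3) against 6.66 ± 0.839. The log2 difference between LR and DTEP was 0.08, with a 95% interval from -0.31 to 0.48. BMP4 lies on chromosome 14 at 53949736 to 53956891, minus strand (GRCh38.p14, as are all coordinates here).

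TGFB2, a ligand of the TGF-beta receptors, rose in DTP from a level under 1. Control libraries gave 0.828, 0.815 and 0.466, DTP libraries 5.43, 7.75 and 10.9, DTEP libraries 2.25, 1.19 and 0.505 and LR libraries 0.845, 1.55 and 7.51. DTP stood apart from both Control and DTEP, while in LR a single library, replicate 3, was within the DTP range. The DTP mean was 11.4-fold the Control mean, a log2 change of 2.37 (limma adjusted p = 0.00135, SE 0.47), and the fall from DTP to DTEP was -1.99 (limma adjusted p = 0.0026, SE 0.47). In LR it was below DTP by -1.35 (limma adjusted p = 0.0218), a call lost without DTP replicate 3, LR replicate 1 or LR replicate 2 and with edgeR or DESeq2 (limma adjusted p up to 0.106 with a library left out). Against Control the LR level was 1.01 higher (limma adjusted p = 0.0803), which did not pass, although it passed with edgeR (2.31, adjusted p = 0.018), with DESeq2 (2.21, adjusted p = 0.00515) and in limma without LR replicate 1 (1.46, adjusted p = 0.0198), the range over the alternatives being 0.00515 to 0.368. Without LR replicate 3 the LR difference from DTEP turned from 0.63 to -0.024, neither of which passed. The gene lies at 218345336 to 218444619 on the plus strand of chromosome 1. Its GENCODE span overlaps TGFB2-AS1 on the other strand, which never exceeded 1.04, and the counter's default settings ignore strand.

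TGFB1 was barely expressed. It gave 0.920, 1.25 and 1.26 in Control, 0.835, 0.888 and 0.576 in DTP cells, 0.431, 0.618 and 0.112 in DTEP and 0.0845, 0.387 and 0.145 in LR, where the reads numbered 2, 7 and 3. All Control values were above all others, and the DTEP values overlapped those of DTP and LR. In the fit without a filter it was lower than Control in LR, with a log2 change of -0.83 (limma adjusted p = 0.000534), and in DTEP, at -0.64 (limma adjusted p = 0.00345), while -0.28 in DTP did not pass (limma adjusted p = 0.148). TGFB1 lies on chromosome 19 at 41330323 to 41353922, minus strand. Its GENCODE span, which can differ from these coordinates, overlaps CCDC97, HNRNPUL1 and TMEM91 on the opposite strand. Whether their exons overlap those of the RefSeq gene that was counted was not checked.

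TGFBR2, the type II receptor to which TGF-beta ligands bind, did not pass in DTP and fell afterwards. Its values were 13.7, 14.7 and 11.7 in Control, 12.3, 15.3 and 17.9 in DTP cells, 3.06, 1.89 and 0.337 in DTEP and 0.169, 0.0553 and 1.36 in LR, the LR level of 0.0553 being 1 read. Control and DTP overlapped, both lay above every later library, and DTEP and LR overlapped. The log2 difference of DTP from Control was 0.16, with a 95% interval from -0.68 to 0.99 (limma adjusted p = 0.757). DTEP was lower than DTP by -2.67 (limma adjusted p = 5.83e-05, SE 0.38), or 8.59-fold by the means (13.6-fold without DTEP replicate 1). LR was 25.4-fold lower than Control (119-fold without LR replicate 3, which carried the LR mean), a log2 change of -3.33 (limma adjusted p = 1.14e-05, SE 0.38). From DTEP to LR the change was -0.81 (limma adjusted p = 0.153). Without DTEP replicate 3 it was -1.26 and passed (limma adjusted p = 0.007), the range over the alternatives being 0.007 to 0.49. TGFBR2 lies on chromosome 3 at 30606356 to 30694142, plus strand.

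The inhibitory SMADs rose in DTP and differed afterwards. SMAD7, which binds activated type I receptors and recruits ubiquitin ligases to them, gave 18.9, 19.1 and 17.6 in Control, 38.8, 37.4 and 37.4 in DTP cells, 22.8, 26.3 and 22.2 in DTEP and 28.1, 32.2 and 20.9 in LR. DTP lay above all other libraries and Control below them, with DTEP and LR overlapping in between. It was 0.99 higher in DTP than in Control on the log2 scale (limma adjusted p = 0.000376, SE 0.16) and fell by 0.65 from DTP to DTEP (limma adjusted p = 0.00368, SE 0.16). LR stayed above Control by 0.50 (limma adjusted p = 0.018, SE 0.16), a call that did not hold without Control replicate 3, LR replicate 1 or LR replicate 2 (limma adjusted p up to 0.0692), and below DTP by -0.49 (limma adjusted p = 0.0174), which did not hold without LR replicate 3 (limma adjusted p = 0.0773). SMAD7 lies on chromosome 18 at 48919853 to 48950965, minus strand.

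SMAD6, which acts mainly on BMP signalling, gave 5.70, 4.95 and 5.73 in Control, 10.6, 9.43 and 10.8 in DTP cells, 10.6, 12.4 and 8.59 in DTEP and 11.998, 12.7 and 10.9 in LR. Every later library was above every Control library, and DTEP overlapped both DTP and LR. The log2 change against Control was 0.80 in DTP (limma adjusted p = 0.00188, SE 0.17), 0.82 in DTEP (limma adjusted p = 0.00123) and 0.99 in LR (limma adjusted p = 0.000277). DTEP differed from DTP by 0.02, with a 95% interval from -0.35 to 0.39, a sign that turned under median-of-ratios scaling. SMAD6 lies on chromosome 15 at 66702236 to 66782849, plus strand.

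The 4 ID genes are shown with the 250 bases before their annotated starts. All 4 had higher values in DTP than in Control, but after DTP the fall of ID1, ID3 and ID4 was not shared by ID2. SMAD6 is shown beside them as the carrier of a SMAD motif. The sequences are from RefSeq on GRCh38.p14, 5′ to 3′ on the gene's strand, and all 10 genes matched a promoter window, 15 windows in all. Capitals mark CCAAT on either strand in the ID genes and the palindrome GTCTAGAC, a SMAD3 and SMAD4 binding element, in SMAD6.
ID1, chr20:31605039-31605288, plus strand: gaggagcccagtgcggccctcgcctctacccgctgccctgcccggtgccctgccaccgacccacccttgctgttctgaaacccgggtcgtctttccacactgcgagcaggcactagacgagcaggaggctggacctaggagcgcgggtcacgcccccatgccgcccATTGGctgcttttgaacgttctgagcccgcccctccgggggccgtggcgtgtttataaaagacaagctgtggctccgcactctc
ID3, chr1:23559502-23559751, minus strand: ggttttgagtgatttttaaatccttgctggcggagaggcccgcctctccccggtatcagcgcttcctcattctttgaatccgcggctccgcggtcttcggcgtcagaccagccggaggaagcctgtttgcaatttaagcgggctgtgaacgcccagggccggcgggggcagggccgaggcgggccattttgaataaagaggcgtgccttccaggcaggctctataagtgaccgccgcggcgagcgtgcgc
ID4, chr6:19837120-19837369, plus strand: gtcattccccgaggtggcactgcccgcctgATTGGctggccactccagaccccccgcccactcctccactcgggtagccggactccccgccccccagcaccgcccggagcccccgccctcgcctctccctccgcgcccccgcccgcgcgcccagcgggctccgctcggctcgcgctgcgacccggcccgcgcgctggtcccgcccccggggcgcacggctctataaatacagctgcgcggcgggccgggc
ID2, chr2:8681806-8682055, plus strand: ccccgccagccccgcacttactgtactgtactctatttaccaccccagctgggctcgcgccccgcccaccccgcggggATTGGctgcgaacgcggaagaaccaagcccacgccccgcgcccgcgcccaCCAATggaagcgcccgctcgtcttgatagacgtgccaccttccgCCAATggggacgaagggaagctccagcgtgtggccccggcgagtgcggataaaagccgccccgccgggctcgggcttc
SMAD6, chr15:66701986-66702235, plus strand: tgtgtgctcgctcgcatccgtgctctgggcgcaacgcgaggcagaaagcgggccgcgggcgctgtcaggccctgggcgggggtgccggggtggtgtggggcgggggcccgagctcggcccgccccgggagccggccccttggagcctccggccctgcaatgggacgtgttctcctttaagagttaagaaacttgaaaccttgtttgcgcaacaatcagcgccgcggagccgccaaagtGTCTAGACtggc
GTCTAGAC was found in the SMAD6 window alone among the 10 genes, with its first letter 12 bases before the start, and in 71 of 35116 windows of all genes (0.202%). GGCGCC, a GC-rich element bound by SMAD1 and SMAD5, had 2 matches in 1 BMP4 window and none in the windows of the other 9 genes, and was present in 19.2% of all windows. CCAAT, a motif chosen after these sequences were seen, had 3 matches in ID2, at 172, 122 and 78 bases before the start, 1 each in ID1 (84 bases) and ID4 (220 bases) and 0 in ID3. It was also found in both TGFBR2 windows and, past the start, in SMAD6, and 34.6% of all windows held it. These are matches of letters only.

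ID1, which holds back differentiation and favours growth in many epithelia, was at 56.3, 53.9 and 52.0 in Control, 171, 116 and 107 in DTP cells, 14.3, 39.0 and 2.25 in DTEP and 0.169, 0.664 and 6.35 in LR. The DTP libraries were above all Control libraries and the DTEP and LR libraries below them, with DTEP replicate 3 inside the LR range. The lowest LR level rests on 4 reads. By group means DTP was 2.42-fold Control, DTEP was 7.07-fold lower than DTP and LR was 22.6-fold lower than Control and 54.7-fold lower than DTP. LR replicate 3 carried the LR mean, and without it the last 2 folds were 130 and 315, while without DTEP replicate 2 the fold between DTP and DTEP was 15.9. The log2 change in DTP against Control, 1.23 (SE 0.79), did not pass (limma adjusted p = 0.208), whereas a fit of these 6 libraries alone, without the spread of DTEP and LR, gave a limma adjusted p = 0.000577, with a range over the alternatives of 0.000577 to 0.399. The fall from DTP to DTEP was -3.36 (limma adjusted p = 0.00237, SE 0.79), and LR was -4.50 from Control (limma adjusted p = 0.000347, SE 0.79).

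ID3, a close relative of ID1, was at 68.3, 64.9 and 72.3 in Control, 343, 286 and 228 in DTP cells, 26.9, 42.6 and 2.41 in DTEP and 0.634, 1.94 and 7.85 in LR. Its order of groups was that of ID1, and again DTEP replicate 3 lay within the LR libraries. DTP was 4.17-fold Control, DTEP 11.9-fold lower than DTP and LR 82.3-fold lower than DTP by the means. Without DTEP replicate 2 the fall to DTEP was 19.5-fold, and without LR replicate 3 LR was 222-fold lower than DTP. The rise in DTP was 2.03 on the log2 scale (limma adjusted p = 0.0464, SE 0.79), a call lost without any 1 of the Control or DTP libraries or LR replicate 2, with the replicate block, with a smaller pseudocount and with no filter (limma adjusted p up to 0.125), while the 6 libraries alone gave 3.13e-05 in limma. The fall to DTEP was -4.14 (limma adjusted p = 0.000549, SE 0.79), and the change from Control to LR was -4.31 (limma adjusted p = 0.000479, SE 0.79). It lies on chromosome 1 at 23557926 to 23559501, minus strand, and ID1 on chromosome 20 at 31605289 to 31606510, plus strand.

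ID4, which is known as a marker of basal mammary cells, was at 21.1, 23.8 and 16.6 in Control, 64.8, 66.5 and 73.6 in DTP cells and 16.9, 6.80 and 0.337 in DTEP. In LR it had 0 reads in all 3 libraries. DTP exceeded Control in every library, DTEP replicate 1 alone was within the Control range, and DTEP replicate 3 held 6 reads. LR was at least 123-fold lower than Control and at least 411-fold lower than DTP, taken against 3 reads in each LR library. The rise in DTP was 1.70 (limma adjusted p = 0.0453, SE 0.66). This call was lost without any 1 of the Control or DTP libraries, without DTEP replicate 2 or any 1 of the LR libraries, and with edgeR or DESeq2 (adjusted p up to 0.129), and with a pseudocount of 0.1 or 0.5 or no filter (limma adjusted p up to 0.141). It held in the 6 libraries alone (limma adjusted p = 5.23e-05). The fall to DTEP was -3.60 (limma adjusted p = 0.000404, SE 0.66). From DTEP to LR the change was -2.51 (limma adjusted p = 0.043, SE 0.66), which failed when any 1 library other than DTEP replicate 3 was left out (limma adjusted p up to 0.152). ID4 lies on chromosome 6 at 19837370 to 19842197, plus strand.

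For these 3 genes, DTEP replicate 3 bore on each comparison that holds DTEP. Without it the falls from DTP to DTEP, which passed in every alternative, were -2.39 for ID1 (limma adjusted p = 0.00528), -3.02 for ID3 (limma adjusted p = 0.000279) and -2.55 for ID4 (limma adjusted p = 1.07e-05). From DTEP to LR, ID1 changed by -2.37 (limma adjusted p = 0.0724) and ID3 by -2.20 (limma adjusted p = 0.0838), neither of which passed. Without DTEP replicate 3, ID1, ID3, ID4 and TGFBR2 all passed, so that 4 genes were lower in LR in place of 1, and without LR replicate 3 ID1 passed. Between DTEP and Control, ID1 was at -2.13 (limma adjusted p = 0.0351), ID3 at -2.11 (limma adjusted p = 0.0365) and ID4 at -1.90 (limma adjusted p = 0.0264). Leaving out DTEP replicate 3 gave -1.15 for ID1 and -0.99 for ID3, which no longer passed. ID4 and TGFBR2 still passed. The calls of ID1 and ID3 were also lost without any 1 of the Control libraries, that of ID1 without DTEP replicate 1, and that of ID4 without Control replicate 1 or 2. With edgeR or DESeq2 only 1 gene, TGFBR2, was lower than Control in DTEP.

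ID2, which the mammary gland needs to form milk-producing lobules, followed another course after DTP. It was at 98.9, 98.7 and 91.0 in Control, 189, 179 and 203 in DTP cells, 165, 230 and 144 in DTEP and 199, 226 and 128 in LR. Every later library was above every Control library, and the 3 later groups overlapped. The rise in DTP was 0.98 (limma adjusted p = 0.00215, SE 0.21), and the differences from Control were 0.87 in DTEP (limma adjusted p = 0.00372) and 0.89 in LR (limma adjusted p = 0.00274). LR differed from DTP by -0.08, with a 95% interval from -0.54 to 0.38. ID2 lies on chromosome 2 at 8682056 to 8684461, plus strand, and its GENCODE span overlaps ID2-AS1, which never exceeded 3.54.

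Per kilobase of exon, the order of mean levels among the 10 genes turned over. In Control ID3 (45.8 normalised read counts per kilobase), ID1 (43.9) and ID2 (43.5) led, and ID4 came next at 5.29. In DTP the order was ID3 (191), ID1 (106) and ID2 (86.0). In LR ID2 (83.4) came first, BMP4 (19.1) next and then SMAD7 (6.86), with ID3 at 2.32, ID1 at 1.94 and ID4 at 0. ID1 and ID3 overlapped in their DTEP values per kilobase, at means of 15.0 and 16.0, and were not tested against each other.

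**Figure D2:**
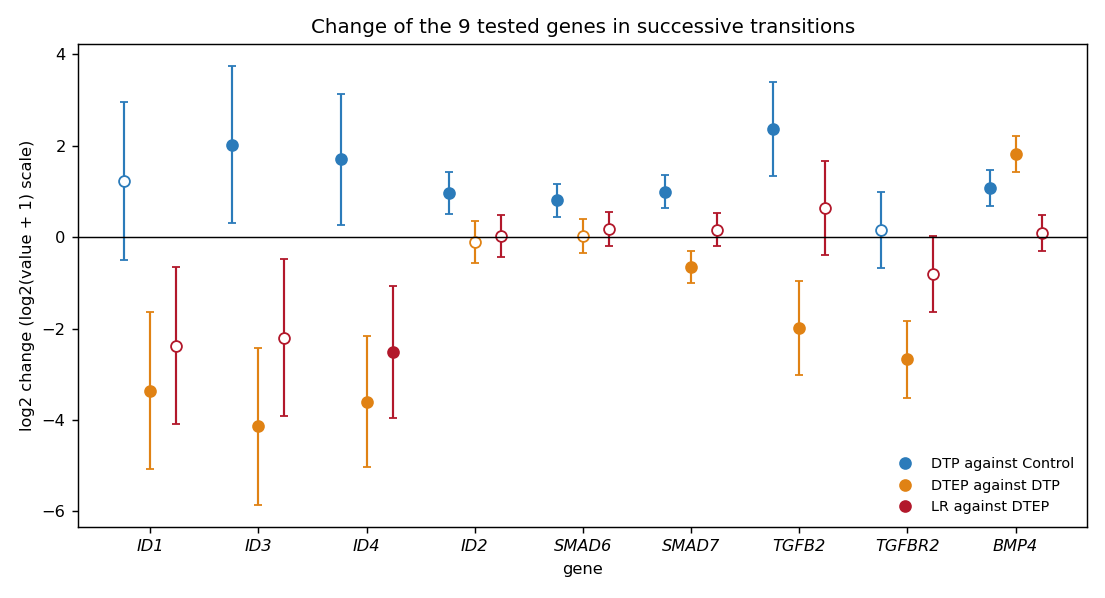
Log2 change (vertical axis, log2(value + 1) scale) of the 9 tested genes (horizontal axis) in DTP against Control, DTEP against DTP and LR against DTEP. Points are limma estimates, bars their 95% intervals, and filled points passed at an adjusted p below 0.05. Of these genes, 7 are filled above 0 in DTP cells, 6 are filled below 0 in DTEP and BMP4 alone is filled above 0 there, and ID4 alone is filled in LR.

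Other genes of the pathway were taken from lists of ligands, receptors, SMADs, extracellular antagonists and activators, intracellular regulators, target genes and E proteins, 118 genes in all, of which 78 were tested. Here 23 rose and 22 fell from Control to DTP, 26 rose and 34 fell from DTP to DTEP, and 5 rose and 1 fell from DTEP to LR. Over all genes 25.2% rose and 28.8% fell at the first step, 35.7% and 32.6% at the second and 3.04% and 4.31% at the third, so the counts at the first step were near the background. Their median log2 changes were 0.02, -0.27 and 0.14. Of the tested genes, GDF9, RGMA, LRRC32 and SNAI1 passed the filter only through DTP, and BMP3 only with DTP and DTEP. GDF15, ACVR1C and IL11 passed only through LR, and BMPR1B and ITGB8 only through Control. The counts of these 78 genes and of the lists below were therefore in part fixed by the filter. Single genes of these lists were not examined under the alternatives.

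Among 25 other ligands, 11 were tested, with 5 higher and 3 lower in DTP than in Control and 6 higher and 4 lower in DTEP than in DTP. These 11 include BMP3, GDF9 and GDF15, whose passing of the filter rested on the groups where they are high. BMP7, a BMP ligand, was at 276, 269 and 297 in Control, 20.2, 20.8 and 20.3 in DTP cells, 0.431, 0.0824 and 0.0561 in DTEP and 0.0422, 0 and 0 in LR. It was therefore the reverse of BMP4 in its course, lower by -3.72 in DTP (limma adjusted p = 5.16e-08, SE 0.16) and by a further -4.19 in DTEP (limma adjusted p = 2.38e-09). GDF5, another ligand of BMP receptors, gave 5.66 to 7.97 in Control, 12.3 to 19.0 in DTP cells, 0.0561 to 2.30 in DTEP and 0 to 0.0422 in LR, with a log2 change of -3.26 from DTP to DTEP (limma adjusted p = 3.42e-06). TGFB3, the third TGF-beta ligand, was at 122 to 130 in Control, 48.9 to 57.1 in DTP cells, 369 to 440 in DTEP and 376 to 385 in LR, so that it fell by 1.25 in DTP (limma adjusted p = 4.71e-06) and rose by 2.91 in DTEP (limma adjusted p = 2.08e-09). GDF11, an activin-like ligand, was low in DTP only, with 10.7 to 11.6 in Control, 0.678 to 1.61 in DTP and 5.70 to 16.1 later. AMH, the anti-Mullerian hormone, rose by 3.11 from DTP to DTEP (limma adjusted p = 1.36e-06), from at most 0.0576 to 5.21 to 11.1.

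**Figure D3:**
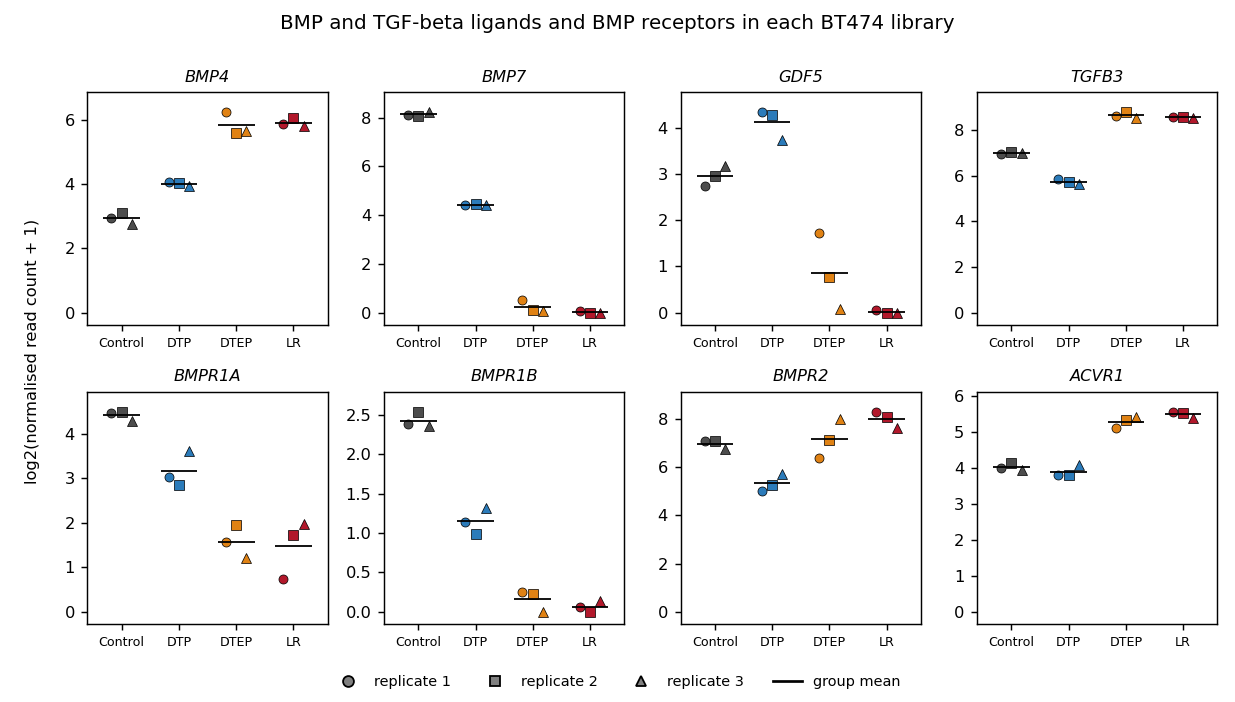
Level of 4 ligands and 4 BMP receptors in each library, as log2(normalised read count + 1) on the vertical axis, by group on the horizontal axis. Symbols are libraries and bars the group mean of the logarithms, with a scale for each panel. BMP4 climbs as BMP7 drops to 0.431 or less in DTEP and LR, TGFB3 dips in DTP and is highest in DTEP and LR, and BMPR1A and BMPR1B step down while ACVR1 steps up in DTEP.

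Of 17 other receptors and coreceptors, 12 were tested, with 2 higher and 6 lower in DTP and 4 higher and 4 lower in DTEP. TGFBR1, the type I receptor that works with TGFBR2, was at 80.5 to 101 in Control, 43.99 to 76.1 in DTP cells, 24.5 to 31.2 in DTEP and 21.0 to 31.1 in LR, and fell by 0.70 in DTP (limma adjusted p = 0.0143) and by 0.96 in DTEP (limma adjusted p = 0.00155). BMPR1A, a type I BMP receptor, gave 18.5 to 21.6 in Control, 6.22 to 11.3 in DTP cells, 1.29 to 2.88 in DTEP and 0.676 to 2.91 in LR, and was lower than Control in LR by -2.93 (limma adjusted p = 6.71e-06). BMPR1B and ACVR1, the other type I BMP receptors plotted, were named after their values were seen. BMPR1B, which passed the filter only through Control, was at 4.15 to 4.84 there and at 0 to 0.0969 in LR, while ACVR1 went from 14.4 to 16.7 up to 41.2 to 46.6, a change of 1.47 (limma adjusted p = 4.11e-06). BMPR2, the type II BMP receptor, was lowest in DTP, at 31.5 to 51.9 against 107 to 134 in Control, 83.2 to 258 in DTEP and 197 to 317 in LR. In the step from DTEP to LR, 3 of the 12 receptors tested rose, against 3.04% of all genes. These were the activin and nodal type I receptors ACVR1B, by 0.72 (limma adjusted p = 0.028), and ACVR1C, by 1.01 (limma adjusted p = 0.0424), and the BMP coreceptor RGMB, by 0.68 (limma adjusted p = 0.043). ACVR1C passed the filter only through LR, so its rise there was in part fixed by the filter. Whether the calls of these receptors hold with a library left out was not examined.

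The SMADs that carry the signal were expressed in all groups apart from SMAD9. SMAD1 did not pass in any comparison, at 34.9 to 37.0 in Control and 28.3 to 37.6 in LR, and SMAD4 was lower in DTEP than in DTP by -0.57 (limma adjusted p = 0.0148). SMAD5 fell in DTP by 2.01 (limma adjusted p = 9.49e-05), from 134 to 182 down to 29.6 to 56.9, and rose by 0.98 in DTEP (limma adjusted p = 0.00689). SMAD2 fell by 0.57 in DTP (limma adjusted p = 0.00511) and rose by 0.46 in DTEP (limma adjusted p = 0.0114). SMAD3, the TGF-beta effector, was at 26.7 to 29.6 in Control, 50.2 to 56.2 in DTP cells, 34.4 to 68.9 in DTEP and 105 to 142 in LR, and rose by 0.89 in DTP (limma adjusted p = 0.0041) and by 1.22 from DTEP to LR (limma adjusted p = 0.0101). LDLRAD4, an inhibitor that keeps SMAD2 and SMAD3 from the receptor, was the other regulator with a rise at that step, by 3.57 (limma adjusted p = 0.00283), from 3.49 to 14.3 in DTEP up to 73.0 to 161 in LR.

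The BMP targets other than the ID genes and the inhibitory SMADs fell after DTP. Of 9 listed, 4 were tested, and in DTEP against DTP 4 of 4 were lower, as they were in LR against Control, where 32.6% of all genes were lower in each comparison. ATOH8, a transcription factor, gave 6.03, 5.71 and 4.98 in Control, 35.4, 33.3 and 30.4 in DTP cells, 3.01, 1.44 and 0.505 in DTEP and 0.169, 0.0553 and 0.824 in LR. Its order of groups was that of ID1, with a rise of 2.37 in DTP (limma adjusted p = 7.4e-05, SE 0.31) and a log2 change of -3.79 from there to DTEP (limma adjusted p = 6.09e-07, SE 0.31). The other 3 genes, named after their values were seen, did not pass in DTP against Control. SMAD9, a BMP-activated SMAD that is itself a target, went from 4.59 to 7.49 in DTP to 0.0561 to 0.287 in DTEP. MSX2, a homeobox factor, and BAMBI, a decoy receptor, changed by -2.07 (limma adjusted p = 1.56e-05) and -1.28 (limma adjusted p = 0.000143) at that step.

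The TGF-beta targets were mixed. Of 20 listed, 16 were tested, with 6 higher and 1 lower in DTP cells and 4 higher and 9 lower in DTEP. TGFBI, a secreted matrix protein, and NEDD9, an adhesion scaffold, rose in DTP by 1.56 (limma adjusted p = 0.00167) and 2.10 (limma adjusted p = 0.0129) and then changed by -3.06 (limma adjusted p = 4.83e-06) and -3.71 (limma adjusted p = 0.000195). NEDD9 was at 103 to 128 in DTP and 0.887 to 2.37 in LR. BHLHE40, a transcriptional repressor also induced by hypoxia and other signals, went the other way, from 0.835 to 1.61 in DTP to 302 to 358 in DTEP and 415 to 489 in LR, a rise of 7.14 (limma adjusted p = 6.21e-11, SE 0.17).

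**Figure D4:**
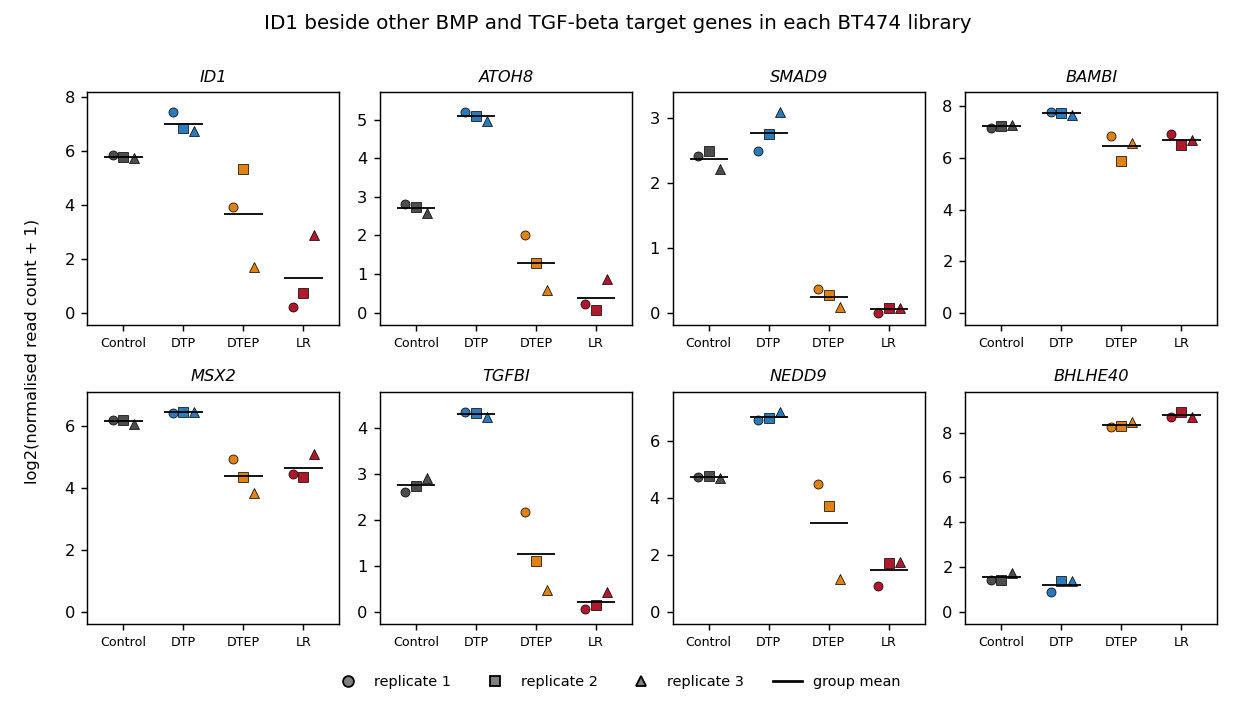
Level of ID1 and of 7 other BMP or TGF-beta targets in each library, as log2(normalised read count + 1) on the vertical axis, by group on the horizontal axis. Symbols are libraries and bars the group mean of the logarithms, with a scale for each panel. ATOH8, TGFBI and NEDD9 peak in DTP and are low in LR like ID1, SMAD9, BAMBI and MSX2 are lower in DTEP and LR than in DTP, and BHLHE40 is at 2.33 or less in Control and DTP and at 302 or more later.

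Outside the cell, the antagonist and latency list was split, with 12 of 24 genes tested, 4 higher and 4 lower in DTP and 3 higher and 7 lower in DTEP. CHRD, the BMP antagonist chordin, rose by 2.09 in DTP (limma adjusted p = 0.00148), from 0.874 to 1.30 up to 6.74 to 10.0. LRRC32, which tethers latent TGF-beta to the cell surface, was at 3.34 to 4.10 in DTP and at 0.046 to 0.14 in Control, and it passed the filter only through DTP, so that a difference was bound to follow. LTBP3, a latent TGF-beta binding protein, rose by 1.59 (limma adjusted p = 9.51e-06). ITGAV, the integrin subunit of the heterodimers that free TGF-beta, fell in DTP by 1.98 (limma adjusted p = 0.000394) and rose in DTEP by 2.48 (limma adjusted p = 3.23e-05), reaching 211 to 308 in LR against 89.4 to 109 in Control. Its partner subunits in the list, ITGB6 and ITGB8, named after their values were seen, took another course. ITGB6 was at 17.7 to 22.3 in Control, 5.90 to 8.81 in DTP cells, 0.393 to 2.58 in DTEP and 0.338 to 0.553 in LR, with a log2 change of -3.83 from Control to LR (limma adjusted p = 3.35e-07), and ITGB8, which passed the filter only through Control, was at 1.40 to 1.79 there and at 0 to 0.127 in LR. Of the 18 intracellular regulators, all tested, 3 rose and 5 fell in DTP, and TRIM33, a ubiquitin ligase of SMAD4, was among those lower, at -1.67 (limma adjusted p = 0.00026). The E protein TCF3, to which ID proteins bind, changed only in LR, from 121 to 144 in DTEP down to 88.1 to 101, a log2 change of -0.50 (limma adjusted p = 0.0489). That call, close to the threshold, was not examined with a library left out.

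Over the 12 libraries, the gene with log2 values most like those of ID1 was ID3 (Pearson r = 0.989), followed by SEC61A2 (0.976), MYBBP1A (0.975), PPIA (0.967) and NT5C3B (0.965). PPIA had group means of 214 in Control, 288 in DTP cells, 144 in DTEP and 73.3 in LR, so its likeness to ID1 was in order and not in size. For SMAD7 they were MRFAP1L1 (0.962), TMEM265 (0.948), SSBP3 (0.938), ZNF865 (0.937) and HDAC5 (0.932). These coefficients describe 12 points that fall into 4 groups and share their libraries and scaling, and carry no test. The proliferation genes ran opposite to the values of ID1 in the first 2 transitions, although the rise of ID1 in DTP did not pass. Of these genes 10 of 10 were lower in DTP and 10 of 10 higher in DTEP, against 28.8% and 35.7% of all genes. From DTEP to LR 7 of 10 were lower, against 4.31%. The luminal markers were 3 higher and 2 lower of 8 in DTP, against 25.2% and 28.8% of all genes. In DTEP 2 were higher and 6 lower, against 35.7% and 32.6%. The part of either list in the changes of the 10 genes was not tested.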

How the data were processed

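The authors made stranded poly(A) libraries from BT474 cells, mapped them to hg38 with Rsubread and counted reads per RefSeq gene with default settings, which ignore strand. The deposited table holds a normalised signal for 26485 genes in 12 libraries. Each of its 199680 non-zero values (100%) was a whole multiple of the smallest value of its library (tolerance 0.01). That value was taken as 1 read, and whole reads were recovered. The signal was read as CPM with TMM factors, although whole multiples alone do not show which factors were used. The submitters' processing notes also name bcl2fastq and edgeR.

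Groups and replicate numbers come from the sample labels. In R 4.3.3, limma 3.58.1 with a trend was fitted to log2(value + 1) of all 12 libraries without covariates, for the 13794 genes at 1 or more in at least 3 libraries, two-sided, with Benjamini-Hochberg adjustment over all of them in each of 6 comparisons. The steps were tested on simulated reads. These had the same dispersion in every group, so the simulation does not cover the wider spread of the DTEP libraries. Alternatives were pseudocounts of 0.1 and 0.5, no filter or a mean of 5, no trend, other scalings, the 6 libraries compared, a replicate block, an absolute log2 change above 2, edgeR 4.0.16 and DESeq2 1.42.0 on the recovered reads, and each library left out.

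The 10 genes and the pathway lists were chosen with earlier results of these data known. All 10 genes were named in every comparison. Of the other pathway genes, those named were the top 5 risers and top 5 fallers by log2 change among those that passed in each successive transition, and a fixed set (TGFBR1, BMPR1A, BMPR2 and SMAD1 to SMAD5, with 1 further gene that is not reported here). BMPR1B, ACVR1, SMAD9, MSX2, BAMBI, ITGB6 and ITGB8 were named after their values were seen. BMP3, GDF9, GDF15, RGMA, SNAI1 and IL11 were named only for how they passed the filter. Some genes stand in 2 lists (BAMBI, SMAD9, PMEPA1 and SKIL among them). Exon lengths and gene overlaps are from GENCODE. Coordinates and promoter windows are from RefSeq, the windows running from 250 bases before to 50 after each start.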

Additional observations from a re-analysis of the deposited data

How the results depend on the processing

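Of 1290 alternative values of the tested genes, 1175 kept their direction and their side of the threshold, 91 lost a call, 11 gained one and 13 turned sign, all 13 of them in differences that did not pass. With 1 library left out, the log2 change of ID2 ran from -0.30 to 0.037 in DTEP against DTP, -0.14 to 0.27 in LR against DTEP and -0.25 to 0.16 in LR against DTP, that of SMAD6 from -0.092 to 0.15 for DTEP against DTP, that of TGFB2 from -0.024 to 1.08 and that of BMP4 from -0.027 to 0.28, both for LR against DTEP. SMAD6 in DTEP against DTP was also -0.077 with median-of-ratios scaling and -0.085 with DESeq2. The shift of the median gene under median-of-ratios factors was -0.10 for DTEP against DTP. Of 2592 alternative counts for the pathway and proliferation lists, 269 were marked as moved from the main fit.

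The count of genes lower in LR than in DTEP, 1, became 0 without a filter and in the 6 libraries alone, 3 with DESeq2 and 0 to 4 with a library left out. The count lower in DTEP than in Control, 4, became 2 with a pseudocount of 0.1, 1 in the 6 libraries alone, 1 with edgeR, 1 with DESeq2 and 1 to 4 with a library left out. With an absolute log2 change above 2 required, the genes called higher numbered 2 for DTP over Control, 0 for DTEP over DTP, 1 each for DTEP and LR over Control and 0 for LR over DTP, and those called lower numbered 0 for DTP below Control, 4 both for DTEP and for LR below DTP, 3 for DTEP and 4 for LR below Control and 1 for LR below DTEP. The cause was not tested. With the replicate block, 6 genes were higher in DTP than in Control in place of 7, ID3 being lost (limma adjusted p = 0.0633), and 2 lower in DTEP than in Control in place of 4, ID1 and ID3 being lost (limma adjusted p = 0.0515 and 0.0508). Same-numbered libraries deviated together with an r of -0.44 to 0.36, over 0.1 in 2 of 18 pairs. Those 2 pairs were DTP with DTEP, at 0.359 for replicate 1 and 0.335 for replicate 3. Libraries of unlike number were not compared, so these values cannot settle whether the numbers pair the libraries. At an adjusted p below 0.05 edgeR called 7215, 9392 and 1703 genes in the 3 successive transitions. Genes below 1, such as TGFB1 and ID4 in LR, rest on few reads.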
